A study of Mus musculus with 16 samples.

Results

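Ttr, Enpp2, Folr1, Kl, Clic6, Aqp1, Kcnj13, Otx2, Sostdc1, and Prlr are genes of the choroid plexus epithelium, and they were followed here in RNA-Seq of the CD11b+ fraction of the mouse brain. The 10 genes were taken by name from the 24421 rows of the count table. They were selected with earlier results of these data in view, among them a fall in MAL-BG mice, so the MAL-BG differences are given as descriptions and without p-values. All 10 were among the 14565 genes with enough counts to be tested. The samples were C57BL/6J mice, stated in the study's methods to be female and 3 weeks old at the start. CON mice ate a standard diet, MAL mice an isocaloric diet low in protein and fat, and MAL-BG mice the same poor diet with oral gavages of a mixture of E. coli and Bacteroidales. CON and MAL mice received PBS gavages instead, and diets lasted 1 month. Cells were released from brain tissue with enzymes and held on a magnetic column by beads against CD11b, an integrin chain on the surface of myeloid cells such as microglia. The methods name whole cerebra as the tissue and the labels name cortical tissue.

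The choroid plexus is a folded sheet of epithelium in the brain ventricles that makes cerebrospinal fluid and forms a barrier between this fluid and the blood. Its cells carry water, ions, folate, and other nutrients across the sheet and secrete carrier proteins and growth factors. Transthyretin, the product of Ttr, is the best known product of these cells. CD11b is not a protein of this epithelium.

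Libraries numbered 4 for CON, 5 for MAL, and 7 for MAL-BG. Replicate numbers here are the running numbers of the columns in the table, which match no sample title. Counts on genes were 10312703 to 13461574 per library in CON, 10864121 to 12819982 in MAL, and 14191791 to 18705202 in MAL-BG. The lowest count of any of the 10 genes in a library was 56 and the highest 416142, so the precision of the levels was set mainly by the spread between libraries. For the proportions among the genes given below, counting can add to the spread where counts were low. In MAL-BG replicate 2, Aqp1 had 56 counts, Otx2 62, and Kcnj13 87. No source used here ties each library to a separate mouse, and p-values measure the spread between these libraries. The 10 defining microglia genes were all present, with a summed level of 16801 to 27499 CPM in CON, 17472 to 29779.9 CPM in MAL, and 36846 to 50302 CPM in MAL-BG, where CPM are counts per 1000000 counts of the TMM-scaled library size. Between MAL-BG and CON, 21.7% of all genes tested were called lower and 11.4% higher, and against MAL 20.2% were called lower and 10.2% higher.

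Together the 10 genes took a large and variable share of all counts. In CON the share was 1.35%, 5.66%, 3.45%, and 3.09% in replicates 1 to 4, with a mean of 3.39% ± 1.77 (SD, n = 4). In MAL it was 1.31%, 4.52%, 4.32%, 0.626%, and 3.26%, with a mean of 2.81% ± 1.76 (SD, n = 5). In MAL-BG it ran from 0.156% to 1.7% with a median of 0.468% and a mean of 0.614% ± 0.51 (SD, n = 7). The highest MAL-BG library lay above the lowest CON library and above both MAL replicates 1 and 4, so the groups overlapped. Ttr alone made up 71.3% to 71.9% of the counts of the 10 genes in CON, 71.2% to 72.5% in MAL, and 71.5% to 79.1% in MAL-BG. In bulk RNA, fewer cells of a type and less RNA per cell cannot be told apart.

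Scaled by exonic length, the genes fell into 3 tiers of level. In CON, Ttr had 19483 ± 10009 CPM per kb (SD, n = 4) and Enpp2 1302 ± 679.5 CPM per kb. The other 8 followed from Kcnj13 at 105 ± 63 CPM per kb through Sostdc1 (85.3), Clic6 (76.5), Kl (59.8), Folr1 (50.2), Aqp1 (42.3), and Otx2 (18.6) to Prlr at 15.1 ± 8.41 CPM per kb. The lowest Ttr value per kb in CON (8371) was above the highest of Enpp2 (2199.6), and the lowest of Enpp2 (556) was above the highest of Kcnj13 (189.8). Among those 8 genes, the ranges of neighbours in the order overlapped. Their order also depends on the length used, which here covers all annotated exons of a gene. The longest transcript is shorter for some, as for Kl (5828 against 9328 bases) and Folr1 (1313 against 2297 bases). In MAL-BG the order of Ttr and Enpp2 was kept, with means of 4002 and 221 CPM per kb, and Sostdc1 followed at 20.6, Kcnj13 at 18.2, and Folr1 at 14.7 CPM per kb.

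**Figure D1:**
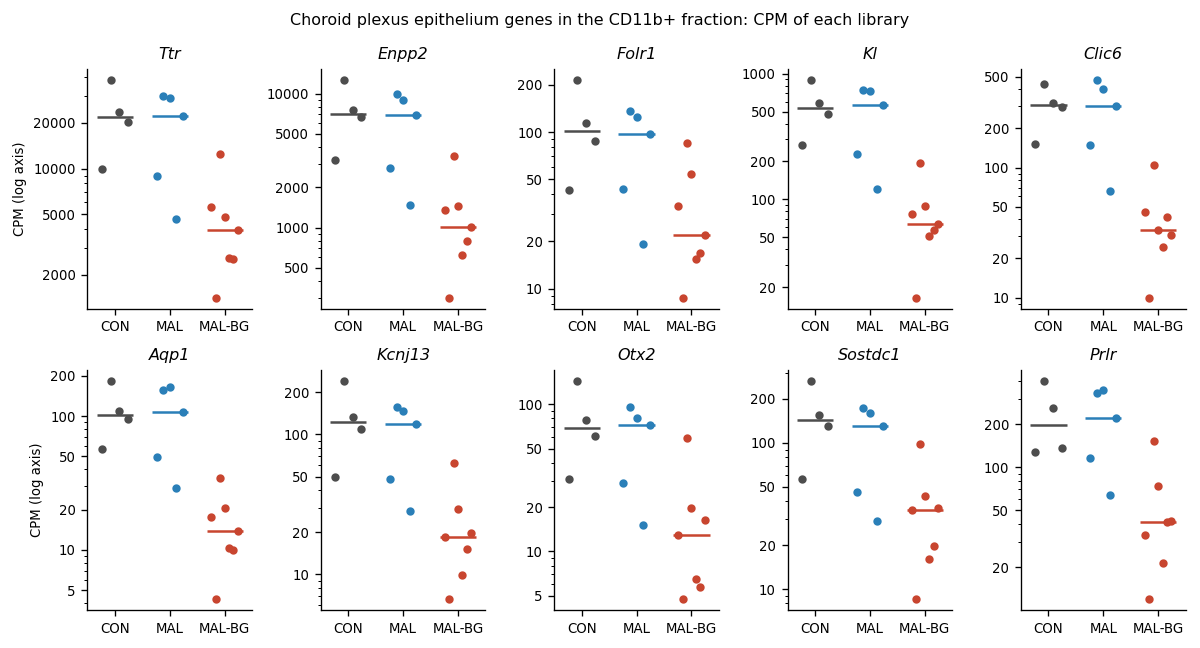
CPM of each of the 10 genes (log axis, 1 panel per gene) in every CON, MAL, and MAL-BG library, ordered by replicate number within a group, with a horizontal line at the group's median. The same libraries are high or low in all panels, and MAL-BG medians lie below those of CON and MAL, as for Ttr at 3909 CPM in MAL-BG against 21947 in CON and 22166 in MAL.

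The first group of genes codes for secreted or shed proteins. Ttr codes for transthyretin, which carries thyroxine and retinol-binding protein in blood and cerebrospinal fluid. Its level was 9928, 38603, 23709.5, and 20185 CPM in the CON libraries and 8928, 30260.3, 29293, 4623, and 22166 CPM in the MAL libraries, against a lowest value of 1405, a median of 3909, and a highest value of 12402 CPM in MAL-BG. One MAL-BG library, replicate 3, exceeded the lowest CON library, and 3 exceeded the lowest MAL library. The fitted log2 fold change of Ttr was -2.28 (standard error 0.547) against CON and -2.01 (standard error 0.523) against MAL, 4.87 and 4.01 times lower. The gene lies on chromosome 18 from 20665280 to 20674321 of GRCm38, as do all coordinates here, and its exons overlap no other annotated gene.

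Enpp2, on chromosome 15 from 54838901 to 54952892, codes for autotaxin, the secreted enzyme that makes lysophosphatidic acid. It counted 3213, 12711, 7518, and 6647 CPM in CON and 2806, 9974, 8941, 1472, and 6979.8 CPM in MAL. In MAL-BG it ran from 299 to 3399 CPM with a median of 1012 CPM. A single MAL-BG library was above the lowest CON and above the lowest MAL library. The log2 fold change was -2.56 (standard error 0.562) against CON and -2.24 (standard error 0.537) against MAL. A noncoding gene on the other strand, Gm26684, overlaps 5.97% of the exonic length of Enpp2 and had no row in the table.

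Kl codes for klotho, a membrane protein that serves as a co-receptor of the hormone FGF23 and is also shed into the fluid, and it lies on chromosome 5 from 150952607 to 150993817. It had 273, 896, 581, and 480.3 CPM in CON and 230.4, 746, 725, 120.5, and 559 CPM in MAL, while in MAL-BG the lowest value was 16.4, the median 63.7, and the highest 195 CPM. All 7 MAL-BG libraries were below all 4 CON libraries, and 1 was above the lowest MAL library. The fall of Kl was among the largest of the 10, with log2 fold changes of -2.83 (standard error 0.527) against CON and -2.60 (standard error 0.506) against MAL.

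Sostdc1, a secreted antagonist of bone morphogenetic protein and Wnt signals on chromosome 12 (36314139 to 36318452), had a smaller fitted fall. It counted 56.7, 265, 156, and 130.0 CPM in CON, 46.2, 172, 159, 29.2, and 131 CPM in MAL, and 8.58 (lowest), 35 (median), and 97.5 CPM (highest) in MAL-BG. The overlap with MAL was wide, since 4 of 7 MAL-BG libraries were above the lowest MAL library. Log2 fold changes were -2.05 (standard error 0.563) against CON and -1.55 (standard error 0.536) against MAL, and the call against MAL was lost when MAL replicate 2, 3, or 5 was left out (-1.34, -1.39, and -1.49).

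A further group codes for proteins that move water, ions, or folate. Aqp1, the water channel of the apical membrane on chromosome 6 (55336432 to 55348555), had 56.6, 183, 109.6, and 95.1 CPM in CON and 49.7, 157, 166, 28.8, and 108 CPM in MAL. In MAL-BG its lowest value was 4.29, its median 13.9, and its highest 34.6 CPM, below all CON libraries and overlapping MAL by 1 library. The log2 fold change was -2.80 (standard error 0.487) against CON and -2.68 (standard error 0.468) against MAL.

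Clic6, a member of the chloride intracellular channel family on chromosome 16 (92485736 to 92541243), had the largest fitted fall. Its levels were 153, 442, 312, and 290.2 CPM in CON, 149, 474, 403, 66.3, and 298 CPM in MAL, and 9.96 (lowest), 32.9 (median), and 104 CPM (highest) in MAL-BG. As for Kl and Aqp1, no MAL-BG library reached the lowest CON library and 1 was above the lowest MAL library. The log2 fold change was -2.86 (standard error 0.514) against CON, or 7.28 times lower, and -2.76 (standard error 0.495) against MAL.

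Kcnj13, on chromosome 1 from 87386363 to 87394729, codes for the inwardly rectifying potassium channel Kir7.1. It had 49.6, 241, 134, and 109 CPM in CON and 47.8, 157, 148, 28.4, and 118 CPM in MAL, against 6.67 to 62 CPM with a median of 18.5 CPM in MAL-BG. One MAL-BG library was above the lowest CON library and 2 above the lowest MAL library. Log2 fold changes were -2.53 (standard error 0.546) and -2.11 (standard error 0.521) against CON and MAL. Of the exonic length of Kcnj13, 49.1% is also exon of Gigyf2 on the other strand, and the strand option used for counting is not given in the sources used here. For Gigyf2 the mean ± SD was 73.9 ± 8.71 CPM over the CON libraries (n = 4), 74.1 ± 4.36 CPM over MAL (n = 5), and 72.4 ± 16.8 CPM over MAL-BG (n = 7), and the fitted difference from CON was -0.03 on the log2 scale (standard error 0.151).

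Folr1, which codes for folate receptor alpha and lies on chromosome 7 from 101858331 to 101870788, had the smallest fitted fall. It counted 42.8, 216, 115, and 87.5 CPM in CON and 43, 136, 125, 19.3, and 96.5 CPM in MAL, with a lowest value of 8.73, a median of 21.9, and a highest value of 85.3 CPM in MAL-BG. In MAL-BG, 2 libraries were above the lowest CON library and 4 above the lowest MAL library. The log2 fold change was -1.77 (standard error 0.575) against CON. Against MAL it was -1.32 (standard error 0.548), and Folr1 was the 1 gene of the 10 that was not called in this comparison. Without CON replicate 2 it was not called against CON either (-1.30), while against MAL it was called without CON replicate 1 (-1.34), MAL replicate 1 (-1.50), MAL replicate 4 (-1.59), or MAL-BG replicate 3 (-1.75).

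The last pair are a receptor and a transcription factor. Prlr, the prolactin receptor on chromosome 15 (10177238 to 10349180), had 127, 402, 259, and 136 CPM in CON, 117, 330.2, 347, 63.8, and 220.4 CPM in MAL, and 12 (lowest), 41.7 (median), and 154 CPM (highest) in MAL-BG. One MAL-BG library was above the lowest CON and 2 above the lowest MAL library. Log2 fold changes of Prlr were -2.10 (standard error 0.562) against CON and -2.00 (standard error 0.538) against MAL. On the same strand Gm21973, which had no row in the table, shares 1.32% of the exonic length of Prlr.

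Otx2 codes for a homeodomain factor needed for the formation and upkeep of the choroid plexus and lies on chromosome 14 from 48657677 to 48673819. Its levels were 30.9, 144, 78.2, and 60.5 CPM in CON and 29.1, 96.4, 81.1, 15.1, and 71.8 CPM in MAL. In MAL-BG they ran from 4.75 to 58.9 CPM with a median of 13 CPM, so that 1 library was above the lowest CON and 3 above the lowest MAL library. Log2 fold changes were -2.14 (standard error 0.618) against CON and -1.72 (standard error 0.59) against MAL, and -2.84 and -2.43 without MAL-BG replicate 3. The call of Otx2 was lost against CON without CON replicate 2 (-1.69), and against MAL without MAL replicate 2 (-1.49), MAL replicate 3 (-1.60), or MAL-BG replicate 1 (-1.60). The antisense gene Otx2os1 shares 3.65% of the exonic length of Otx2, and Gm49154 on the same strand, which had no row in the table, shares 3.98%.

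As Otx2 is the 1 regulator among the genes, the windows from 250 bases before to 50 after the gene starts in RefSeq (GRCm38.p6) were searched for TAATCC, the core motif bound by OTX factors, and for GGATTA, its reverse complement. Windows were given for 5 of the 10 genes, Kl, Aqp1, Kcnj13, Otx2, and Prlr. The motif was in 1 of the 4 windows of Otx2 and in 0 of those of the other 4 genes, against 7.06% of 32851 windows and 8.14% of 27025 genes. The window that held it is on the minus strand at chr14:48665060-48665359 and is shown 5′ to 3′ with the motif, whose first base is 211 bases before the gene start, in capitals.
Otx2: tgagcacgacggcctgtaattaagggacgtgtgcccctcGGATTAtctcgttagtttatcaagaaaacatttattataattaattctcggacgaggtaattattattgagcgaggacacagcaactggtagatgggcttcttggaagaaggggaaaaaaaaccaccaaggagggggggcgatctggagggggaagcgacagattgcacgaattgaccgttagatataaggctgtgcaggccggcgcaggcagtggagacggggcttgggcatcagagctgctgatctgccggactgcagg
A match of letters is a description and does not show that a factor binds there.

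**Figure D2:**
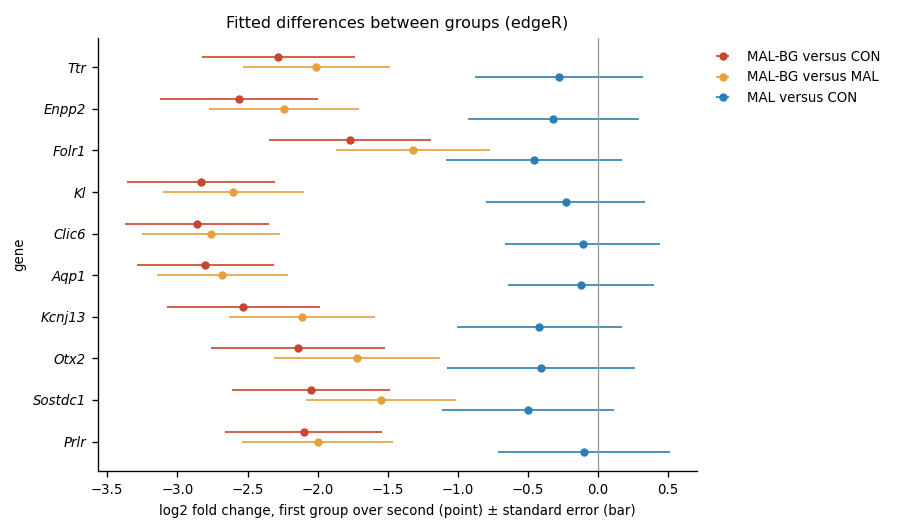
Log2 fold change (x axis) of each of the 10 genes (y axis) in the 3 comparisons, as the fitted value (point) and its standard error (bar). All MAL-BG values are below 0, from -2.86 to -1.32, and MAL against CON lies between -0.50 and -0.10 with bars that cross 0.

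Over the 10 genes the median log2 fold change was -2.41 in MAL-BG versus CON, from -2.86 (Clic6) to -1.77 (Folr1), while the median over all genes tested was -0.04. Called genes were those with an adjusted p under 0.05 in edgeR's quasi-likelihood test and an absolute log2 fold change above 0.58. By this definition 10 of 10 were lower than in CON, beside 21.7% of all genes, and 9 of 10 were lower than in MAL, beside 20.2%. Against MAL the median was -2.06, and the median of all genes was -0.03. The comparisons share the MAL-BG libraries, and nothing is read from these counts because the genes were selected with the fall known. Without MAL-BG replicate 3 the medians were -2.93 and -2.56, and without CON replicate 2 the median against CON was -2.02 with 8 of 10 called.

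Separation by library was less complete than the fitted differences. For 3 genes, Kl, Clic6, and Aqp1, all MAL-BG libraries were below all CON libraries, beside 11.1% of all genes. For 0 of 10 were they below all MAL libraries, beside 8.95% of all genes, or below all 9 CON and MAL libraries, beside 6.36%. MAL replicate 4 was the library with the lowest level of all 10 genes among the 9 without bacteria.

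No difference between the diets without bacteria passed the test. The edgeR fit called 0 of the 10 in MAL versus CON, and it called 0% of all genes tested. All 10 fitted values were below 0, from -0.50 (standard error 0.612, adjusted p = 0.999) for Sostdc1 to -0.10 (standard error 0.613, adjusted p = 0.999) for Prlr, with a median of -0.30. Unadjusted p-values of the edgeR test were 0.426 for Sostdc1 to 0.873 for Prlr, and 0 of the 10 were under 0.05, while 212 of the 14565 genes tested were. DESeq2 also called 0 genes and had 241 at an unadjusted p under 0.05. The sign of these small values rested on single libraries. Without CON replicate 2, Sostdc1 stayed at -0.09 and the other 9 turned to between 0.03 (Kcnj13) and 0.30 (Prlr).

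Within each group the genes rose and fell together from library to library. In CON all 10 were lowest in replicate 1 and highest in replicate 2. In MAL all 10 were lowest in replicate 4, and the highest was replicate 2 for 8 genes and replicate 3 for Aqp1 and Prlr. In MAL-BG all 10 were lowest in replicate 2 and highest in replicate 3. The ratio of the highest to the lowest library was 2.9 to 5.05 in CON, 5.43 to 7.14 in MAL, and 8.06 to 12.9 in MAL-BG.

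This shared variation was measured as the Pearson r of deviations of log2 CPM from the group mean over the 16 libraries. All genes of a library share the depth and preparation of that library, which can differ from those of other libraries. Among the 45 pairs of the 10 genes, the median r was 0.968 (0.878 to 0.993). Each gene against the mean of the other 9 gave 0.949 (Clic6) to 0.997 (Enpp2). The mean of the 10 had a median r of -0.0421 with all other genes tested, and 276 of them (1.9%) reached 0.9. Because the 10 genes were named as 1 cell type, these values describe how tightly the list held together in these libraries and are given with no p.

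The 8 other genes most like the 10 were Steap2 (r = 0.994), Vat1l (0.992), Cldn2 (0.991), Htr2c (0.99), Col8a1 (0.99), Trpm3 (0.988), 1500015O10Rik (0.988), and Myh14 (0.987). The choice of these 8 was not firm, since 1 of them was in the first 8 over the 9 libraries without bacteria and 3 were by Spearman's rho. All of them except Steap2 and Myh14 stand on the list of other choroid plexus genes used here. Htr2c codes for the serotonin receptor 2C and Cldn2 for the tight junction protein claudin 2, and Steap2 for a metalloreductase. Mean ± SD of Steap2 was 101 ± 49.1 CPM over the CON libraries (n = 4), 84.7 ± 49.3 CPM over MAL (n = 5), and 18.9 ± 17.2 CPM over MAL-BG (n = 7), and it differed from CON by -2.42 on the log2 scale (standard error 0.564). Myh14, a nonmuscle myosin heavy chain, had 55.6 ± 21.8, 47.8 ± 26.3, and 10.2 ± 6.96 CPM, and its log2 fold change was -2.44 (standard error 0.457).

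**Figure D3:**
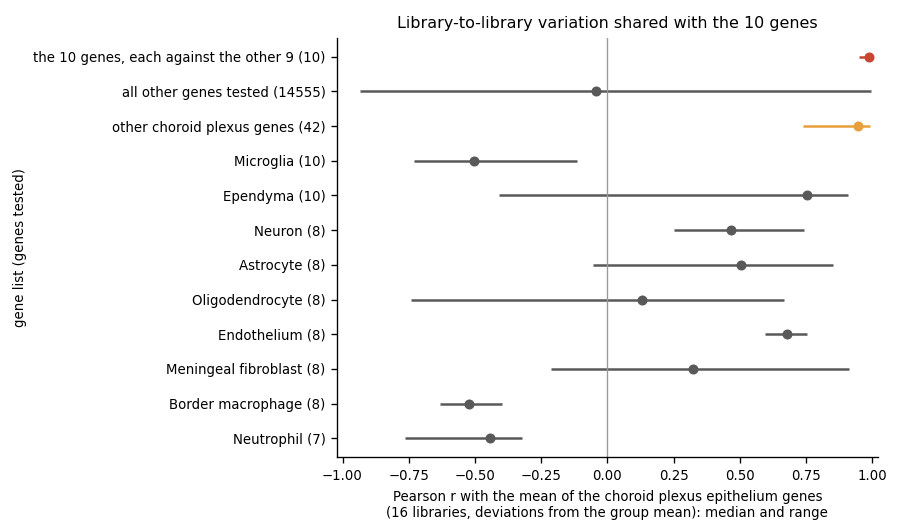
Pearson r (x axis) between single genes and the mean of the 10 choroid plexus epithelium genes over 16 libraries, after the group mean was taken off, as the median (point) and range (line) of each gene list (y axis, with the number of genes tested). The 42 other choroid plexus genes have a median of 0.948, all other genes tested a median of -0.0421, and microglia genes a median of -0.505.

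Proportions among the 10 genes were compared within each library, as the log2 CPM of a gene minus the mean log2 CPM of all 10, a difference that hardly depends on how libraries are scaled. In each library the 10 differences sum to 0, so rises of some genes and drops of others are not separate observations. The group means of MAL minus CON were small, from -0.18 for Sostdc1 to 0.23 for Prlr. In MAL-BG the proportions of 2 genes lay wholly outside the range of the other libraries. Folr1 was -1.54 to -0.76 in the 7 MAL-BG libraries and -2.16 to -1.70 in the 9 others, without overlap. Sostdc1 was -1.26 to -0.84 in MAL-BG and -1.82 to -1.37 in the others, also without overlap. The same difference from the mean of the 10 was above all 9 others in every MAL-BG library for 6.19% of all genes tested. In the other direction, 6 of 7 MAL-BG libraries were below all 9 others for Enpp2, Kl, Clic6, and Aqp1. Wholly separated in this direction were 0 of the 10 genes and 0.11% of all genes tested. For genes outside the 10, the difference also carries the fall and the swings of the 10 themselves. These percentages are therefore no reference rate for the 10 genes. Against CON the mean proportion was higher by 0.66 ± 0.13 (standard error) for Folr1 and 0.36 ± 0.09 for Sostdc1, and it dropped by 0.48 ± 0.18 for Clic6 and by 0.44 ± 0.10 for Kl.

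**Figure D4:**
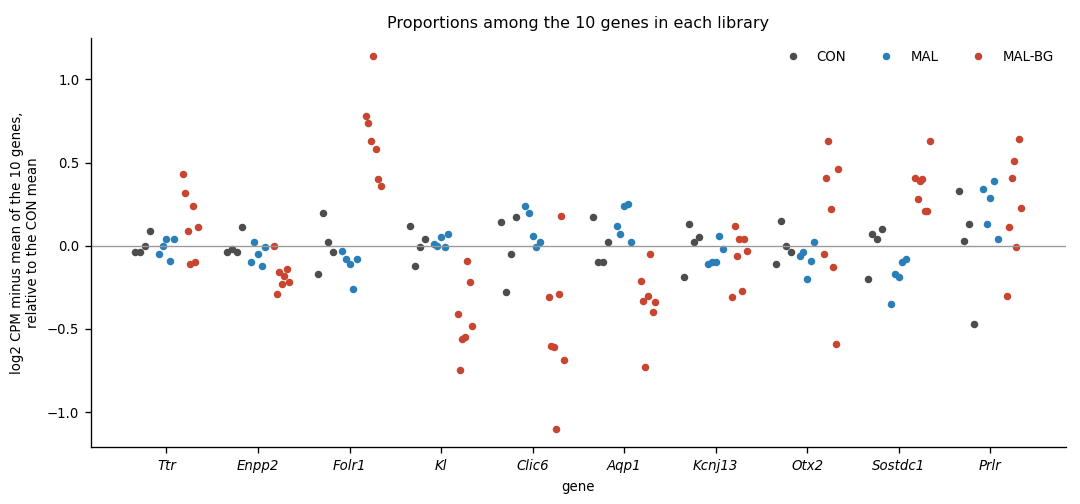
Log2 CPM of each gene minus the mean of the 10 genes in the same library, drawn relative to the gene's CON mean (y axis), for every CON, MAL, and MAL-BG library (points). Folr1 and Sostdc1 lie above all other libraries in the 7 MAL-BG libraries, and Kl, Clic6, and Aqp1 lie mostly below 0.

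The ratio of Folr1 to Aqp1, a pair chosen after the values were seen, shows the size of this shift. In CON it was 0.756, 1.18, 1.04, and 0.92, in MAL 0.865, 0.867, 0.753, 0.67, and 0.892, and in MAL-BG 1.49 at the lowest, 1.9 at the median, and 2.61 at the highest. No MAL-BG library overlapped the other 9. The pair joins a gene that rose in proportion to one that dropped, so its separation is no separate evidence of a shift. How many other pairs separate in this way was not counted. Folr1 and Aqp1 have similar exonic lengths (2.3 and 2.63 kb) and GC contents (54.4% and 54.9%). Their longest annotated transcripts differ in length, with 1313 bases for Folr1 and 2627 bases for Aqp1. The part of transcript length in this ratio was not tested.

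Exonic length was set beside the fold changes. Across genes, which are not independent replicates, Spearman's rho between exonic length and the log2 fold change against CON was -0.21 over the 13997 tested genes with a length, -0.24 over the 10, and -0.33 over the 52 choroid plexus genes. The shortest of the 10 were Ttr (1.19 kb, -2.28), Kcnj13 (1.27 kb, -2.53), Sostdc1 (1.78 kb, -2.05), and Folr1 (2.3 kb, -1.77). The longest were Prlr (15.3 kb, -2.10), Kl (9.33 kb, -2.83), Enpp2 (5.78 kb, -2.56), and Otx2 (4.22 kb, -2.14). With offsets for length and GC content in the fit, an alternative added after the data were seen, 10 of 10 were called against both groups, and Folr1 was at -1.49 against MAL. The part of RNA length in the shift of proportions was not tested beyond these values.

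**Figure D5:**
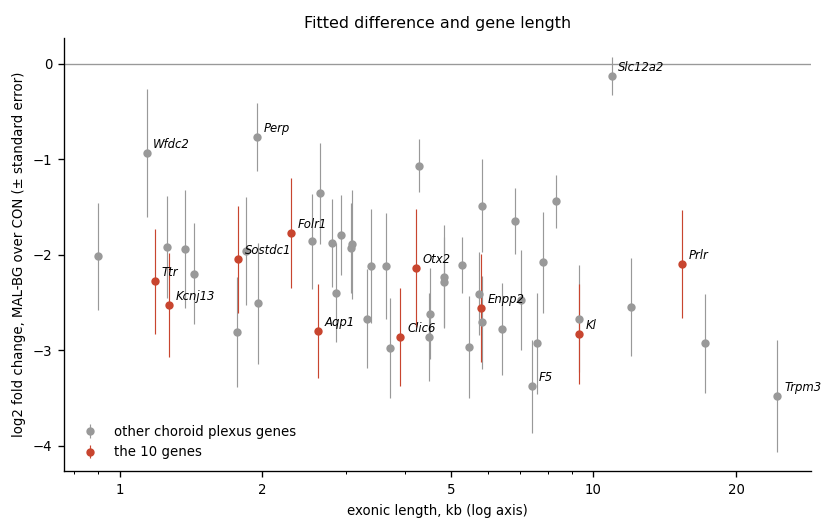
Log2 fold change of MAL-BG over CON with its standard error (y axis) against exonic length in kb (x axis, log axis) for the 10 genes and 42 other choroid plexus genes. Spearman's rho over the 52 genes is -0.33, and Slc12a2 near 0 and Trpm3 at -3.48 are the extremes.

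Other genes of the choroid plexus, in a list of 43 names grouped by role, were read next to the 10. Ecrg4 and 1500015O10Rik on the list are names of the same gene, which the table holds under the latter, so 42 genes were read and all 42 were tested. In MAL-BG versus CON, 39 of 42 were called lower, beside 21.7% of all genes tested, and 0 higher, the median being -2.16 (log2 fold change). In MAL-BG versus MAL, 37 were called lower, beside 20.2% of all genes tested, and 0 higher, the median being -1.91. Between MAL and CON 0 of 42 were called, with a median of -0.28. Their r with the mean of the 10 had a median of 0.948 (0.739 to 0.992). This list too was written with earlier results known and is no independent evidence of a direction.

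In the group listed as secreted, 9 of 10 were called lower than in CON. Igf2, an insulin-like growth factor, had 713 ± 284 CPM in the 4 CON libraries (mean ± SD, as below), 609.8 ± 315 CPM in MAL, and 134 ± 94 CPM in the 7 MAL-BG libraries. Its log2 fold change was -2.41 (standard error 0.434) against CON. Log2 fold changes were -1.96 for the binding protein Igfbp2, -2.11 for the angiotensin-converting enzyme Ace, -2.02 for 1500015O10Rik, and -2.97 for Vat1l, which was listed in this group but is not known as a secreted protein. F5, coagulation factor V, fell from 194 ± 96.4 CPM in CON to 18.7 ± 11.7 CPM in MAL-BG (-3.38, standard error 0.484). Wfdc2, a secreted protease inhibitor, was not called, with 28.4 ± 20 CPM in CON, 14.7 ± 14.3 CPM in MAL-BG, and a log2 fold change of -0.94 (standard error 0.669).

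Among 15 transport genes, 14 were called lower, with a median of -2.55. The cation channel gene Trpm3 had the largest fitted fall of the 42 against CON (-3.48, standard error 0.582), and F5 had it against MAL (-3.19, with Trpm3 at -3.13). Levels of Trpm3 were 339.9 ± 215 CPM in CON, 266 ± 147 CPM in MAL, and 30.5 ± 29.4 CPM in MAL-BG. Slco1a5, an organic anion transporter, was scarce (5.75 ± 3.28 CPM in CON) and fell by 2.98. Log2 fold changes were -2.93 for Car12, a carbonic anhydrase, -1.93 for Atp1b1, a subunit of the sodium pump, and -1.44 for the anion exchanger gene Slc4a2. Slc12a2, the sodium, potassium, and chloride cotransporter NKCC1, was the exception. It had 349.7 ± 91 CPM in CON, 325 ± 65.7 CPM in MAL, and 319 ± 75 CPM in MAL-BG, and its log2 fold change was -0.13 (standard error 0.195), although its r with the 10 genes was 0.798.

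The remaining groups of the list fell as well. Of 10 junction and membrane genes 9 were called lower than in CON, with a median of -2.16, and the 1 not called was Perp (-0.77, standard error 0.353). The 2 transcription factors, 3 vitamin A genes, and 2 receptors were all called against CON, with medians of -2.00, -1.49, and -2.58. Against MAL, 5 of the 42 were not called, among them Wfdc2, Slc12a2, Perp, and Msx1 (-1.22), the last named here after its values were seen. In proportion to the mean of the 10, 3 of the 42 genes, Car14 and Rdh5 among them, were above all 9 others in every MAL-BG library. Below all 9 others were 2, Vat1l and Trpm3. These genes too are named after their values were seen. The shares over all genes tested (6.19% above and 0.11% below) carry the fall of the 10 and are no reference rate for these counts.

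Markers of other cell types also moved with MAL-BG, in both directions. Over all genes tested, 21.7% were called lower and 11.4% higher than in CON, so a few called genes do not set a list apart. All 10 microglia genes had fitted values above 0 against CON and 6 were called higher, with Cx3cr1 at 3075 ± 907 CPM in CON and 7719.7 ± 2347 CPM in MAL-BG (log2 fold change 1.33). Tmem119 was called higher (1.08) and P2ry12 was not (0.38). Summed over the list, the level of microglia genes was above all 9 others in every MAL-BG library. Their median r with the choroid plexus genes within groups was -0.505.

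Ependymal cells line the ventricles beside the choroid plexus, and 8 of their 10 markers were called lower than in CON, with Foxj1, the regulator of motile cilia, at 81.8 ± 26 CPM in CON and 13.5 ± 8.19 in MAL-BG (-2.60). Hdc was not called (0.38). Against MAL, 6 of the 10 were called lower, beside 20.2% of all genes tested, and 1, Hdc, was called higher (0.98), beside 10.2%. The summed level of the ependyma list was 173 to 303 CPM in CON, 86.8 to 279 in MAL, and 44.3 to 156 in MAL-BG. Median r with the choroid plexus genes was 0.755. Of 8 neuronal markers 7 were called lower, among them Meg3 (-1.78) and Nrgn (-2.52), with a summed level of 91.8 to 398 CPM in CON, 103 to 495 in MAL, and 26.9 to 155 in MAL-BG. Of 8 astrocyte markers 5 were called lower, Slc1a2 among them (-2.32) and Slc1a3 not (-0.20), with a sum of 281 to 619 CPM in CON, 339 to 563 in MAL, and 145 to 267 in MAL-BG.

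Endothelial markers varied with the choroid plexus genes within groups, with a median r of 0.678, yet stood apart from them between groups. Of 8 endothelial genes 3 were called higher than in CON and 0 lower, with Cldn5 at 253 ± 120.1 CPM in CON and 758 ± 407 in MAL-BG (1.58) and Flt1 not called (0.13). Their summed level was 538 to 1892 CPM in CON, 505 to 1422 in MAL, and 1164 to 3818 in MAL-BG. Of 8 meningeal fibroblast genes 3 were called lower, with Igf2, which stands on both lists, and Col1a2 (-1.01, not called) as the most abundant, and a sum of 427 to 1184 CPM in CON, 316 to 1125 in MAL, and 97 to 425 in MAL-BG. None of these lists had a defining gene at 0 in all libraries, and their part in the choroid plexus values was not tested.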

How the data were processed

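RNA-Seq of the CD11b+ fraction covered 16 libraries (CON 4, MAL 5, MAL-BG 7). Stranded poly(A) libraries were prepared, and the authors aligned their reads to GRCm38.p6 with STAR, and deposited raw counts per gene from HTSeq. The strand option and annotation of the counting are not given in the sources used here. Columns name the group and a running number. The 14565 of 24421 rows that exceeded 10 counts in 4 libraries or more were fitted in 1 model of the 3 groups with edgeR 4.0.16 in R 4.3.3 (TMM scaling, quasi-likelihood test, Benjamini-Hochberg adjustment within a comparison). A gene was called at an adjusted p under 0.05 when its log2 fold change was also beyond 0.58 in either direction. CPM are relative to TMM-scaled sizes, and log2 CPM used a prior count of 2. The authors' DESeq2 code holds a batch term. None was fitted here, since the batch of each library is not given in the sources used here, so the folds and errors do not account for batches. Replicates differed by more than counting noise. The steps were tested on simulated data. Alternatives were DESeq2 1.42.0, other scalings and filters, fits of the compared groups only, and each library left out.

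Exonic lengths and coordinates come from GENCODE M21 and promoter windows from RefSeq. The 10 genes and all lists were chosen with earlier results of these data known. Of the other choroid plexus genes, those named are the ones not called against CON, the 3 of largest fall, and then those of highest CPM in CON up to 14 in all. The 8 genes most like the 10 and the 2 most abundant genes of each marker list are also named. A few genes that fall under these rules are not reported here.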

Additional observations from a re-analysis of the deposited data

Results flagged for a closer look

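MAL-BG replicate 3 was the highest MAL-BG library for all 10 genes, and for 7 of them its gap to the next library was large against the range of the group. Its levels for these 7 were 12402 CPM for Ttr, 3399 for Enpp2, 195 for Kl, 104 for Clic6, 62 for Kcnj13, 58.9 for Otx2, and 97.5 CPM for Sostdc1. The share of its counts on the 10 genes, 1.7%, stood apart too. In all, 8 of the 33 groups of values examined held such a library. Chance flags about 1 in 20 groups, a rate that may not hold for skewed values such as these CPM. The genes rise and fall together, so the 8 flags are largely 1 observation. On the log2 scale, the mean deviation of the 10 genes was 1.75 in replicate 3, 0.58 in replicate 4, and -1.63 in replicate 2. On that scale replicate 3 was about as far above the group mean as replicate 2 was below it. Without replicate 3 the median log2 fold change of the 10 genes was -2.93 against CON and -2.56 against MAL, and the mean share of counts in MAL-BG was 0.433%. The cause was not tested.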

How the results depend on the processing

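No paired analysis was possible because the columns of the table carry only running numbers that match no sample title, so no library of one group could be paired with a library of another. Under other scalings, filters, DESeq2, fits of the compared groups only, and offsets for length and GC content, 10 of 10 genes were called lower against CON, 9 or 10 against MAL, and 0 between MAL and CON, with medians of -2.52 to -2.17, -2.24 to -1.83, and -0.31 to -0.28. Scaling by the mean log2 CPM moved the median of all genes to 0.21 and 0.19, and total counts to -0.17 and -0.16. Of 260 recomputed fold changes against CON, 258 kept direction and call and 2 lost the call, and against MAL 249 kept both, 6 lost the call, and 5 gained it. The genes were selected with the fall in these same libraries known. These counts therefore describe the effect of the processing and are no test of the fall.

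With each library left out, 8 to 10 genes were called against CON (medians -2.93 to -2.02) and 7 to 10 against MAL (-2.56 to -1.83), and of the 42 other choroid plexus genes 33 to 40 and 29 to 39. MAL versus CON turned sign in 16 of 260 values without passing the test, and leave-one-out ranges were -0.54 to 0.08 for Ttr, -0.58 to 0.05 for Enpp2, -0.74 to 0.04 for Folr1, -0.46 to 0.09 for Kl, -0.39 to 0.14 for Clic6, -0.37 to 0.22 for Aqp1, -0.70 to 0.03 for Kcnj13, -0.69 to 0.05 for Otx2, -0.34 to 0.30 for Prlr, and -0.56 to 0.07 for the median. The mean share of counts was 2.63% to 4.07% in CON, 2.38% to 3.35% in MAL, and 0.433% to 0.69% in MAL-BG. Without Ttr the other 9 genes took 0.993% in CON and 0.811% in MAL. Of the 8 most similar genes, 3 were also in the first 8 by Spearman's rho, 1 in the 9 libraries without bacteria, and 5 to 8 with a library left out, 5 without MAL-BG replicate 2, 4, or 5. The causes were not tested.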

Other observations

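Of 7 neutrophil markers in the table, 6 were called higher against CON, beside 11.4% of all genes tested, and Csf3r was not called (-0.40). S100a9 was at 46.4 ± 17.6 CPM (mean ± SD) over the CON libraries (n = 4), 61.6 ± 48.8 over MAL (n = 5), and 861 ± 1348 over MAL-BG (n = 7). The summed level of the list was 466 to 1207 CPM in CON, 511 to 1029 in MAL, and 494 to 10292 in MAL-BG. The MAL-BG median of this sum, 972 CPM, lay within the ranges of CON and MAL. The median r of the list with the choroid plexus genes was -0.445. Of 7 erythroid genes, 4 were at 0 in every library and 1, Alas2, was tested (called higher, 1.32 against CON). Its sum was 0.631 to 1.84 CPM in CON, 0.0851 to 1.53 in MAL, and 2.24 to 4.82 in MAL-BG.

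Of 8 border macrophage genes, 1 was called lower than in CON, F13a1 (-0.75), beside 21.7% of all genes tested. Mrc1 was not called (0.00). The sum of the list was 239 to 657 CPM in CON, 277 to 827 in MAL, and 247 to 368 in MAL-BG. Of 8 oligodendrocyte genes, 3 were called higher than in CON, beside 11.4% of all genes tested, and Mbp was not (0.03). Their sum was 419.9 to 1074 CPM in CON, 594 to 928 in MAL, and 501 to 1222 in MAL-BG. Median r with the choroid plexus genes was -0.524 for border macrophage genes and 0.132 for oligodendrocyte genes.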
